A study of Mus musculus with 21 samples.

Results

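This account covers 9 transcription factor genes of skeletal muscle: the paired-box genes Pax7 and Pax3, the myogenic basic helix-loop-helix genes Myf5, Myod1, Myog and Myf6, the homeobox gene Six4, and the MADS-box genes Mef2a and Mef2c. They were chosen by name, as known factors of the muscle lineage, from 19938 genes named on the array, by a rule that uses no measured value, though with earlier results of these data known. All 9 were measured by 1 probeset each and lay above the filter on dim genes, as did 13956 of the 19938. Expression was measured with Affymetrix Mouse Gene 1.0 ST arrays in muscle stem cells (satellite cells) sorted from mouse hindlimb as YFP-positive cells and not cultured. Quiescent satellite cells (QSC) came from noninjured mice. Contralateral satellite cells (CSC) came from the uninjured hindlimb of mice whose other hindlimb had received barium chloride, which kills muscle fibres. The study asks whether a distant injury alters satellite cells that are not themselves injured, and what mTORC1, a growth-controlling kinase complex, and cMet, the receptor of hepatocyte growth factor, contribute.

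All mice carried Pax7CreER/+;Rosa26REYFP/+, so that tamoxifen, given at least 2 weeks before, switched on both the YFP tracer and any gene deletion in cells that express Pax7. Mice with these alleles alone are called WT here. The knockouts (KO) carried TSC1flox/flox, Rptrflox/flox or cMetflox/flox in addition. TSC1 is an inhibitor of mTORC1 and Rptor encodes raptor, a subunit that mTORC1 needs. WT, TSC1 KO and Rptor KO mice were of mixed C57BL6 strain. The cMet KO mice were C57BL6 mixed FVB, so strain and genotype cannot be told apart for them. Mice were 3 to 5 months old and were pooled by 3 to 4. Replicate pools exist for 2 groups: WT QSC, with 3 pools (5 arrays), and WT CSC taken 2.5 days after injury, with 3 pools (4 arrays). Each of the remaining 6 groups is a single pool on 2 arrays. These are the WT CSC of day 28, the QSC of each knockout (TSC1, Rptor and cMet), and the 2.5-day CSC of the Rptor and of the cMet knockout. The pool was the unit of every test. A test of a group with 1 pool takes its error from the WT pools, assumes that the pool varies as they do, and cannot tell the genotype or time apart from the pool.

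Pax7 and Pax3 are DNA-binding factors that mark muscle precursors, and Pax7 is the usual marker of the adult satellite cell. When satellite cells leave quiescence, Myf5 and MyoD (encoded by Myod1) commit them to the muscle lineage, and myogenin (Myog) drives their differentiation. Myf6, also called MRF4, lies next to Myf5 in the genome, with 0 annotated genes between them in RefSeq's GRCm38.p6 table, and acts in differentiation and in the fibre. These 4 factors pair with E proteins and bind the E-box. Six4 binds the MEF3 site with its Eya partners and acts upstream of myogenic genes, and the Mef2 proteins act together with the myogenic factors on muscle genes.

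The sorted cells carried satellite cell markers in every pool: the log2 of the summed signal of 8 such genes (Calcr, Vcam1, Itga7, Cxcr4, Sdc4, Chodl, Cdh15 and Cd34) lay between 14.74 and 14.96 in WT QSC, between 14.18 and 14.42 in WT CSC at 2.5 days, and between 14.33 and 15.08 in the other pools. Markers of other cells were also detected and differed between groups. The log2 summed signal of 12 endothelial markers lay between 12.64 and 13.31 in WT QSC and between 11.55 and 12.01 in WT CSC at 2.5 days. By the test used below, 8 of the 12 were lower there, beside 7.36% of all tested genes. The log2 summed signal of 10 fibro-adipogenic markers was 14.03 to 14.21 in WT QSC and 12.92 to 13.45 in these CSC pools. That of 9 macrophage and monocyte markers was 13.60 in the Rptor KO CSC pool against 10.99 to 11.17 in WT CSC. The signal of the targeted genes checks the labels only in part, since the labels do not say which exons were deleted. Tsc1 was lowest of all 12 pools in TSC1 KO QSC, at 8.16 against 8.34 to 8.69 in WT QSC. Rptor in the 2 pools labelled Rptor KO was 9.19 (QSC) and 8.85 (CSC), against 8.91 to 9.58 in WT QSC and 9.43 to 9.84 in WT CSC. Met in the 2 pools labelled cMet KO was 10.25 (QSC) and 10.13 (CSC), against 9.93 to 10.11 and 10.63 to 10.84, so that in quiescent cells it was not lower than in WT.

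At 2.5 days after a distant injury, Pax7, Pax3 and Mef2c fell and Six4 and Mef2a rose in WT satellite cells. The differences lay between 1.49-fold and 2.10-fold. Myf5, Myod1, Myog and Myf6 did not pass the test. Thus 5 of the 9 passed (limma, Benjamini-Hochberg adjusted p under 0.05 over all genes, 3 pools against 3), beside 18% of all 13956 tested genes. In 1 direction, 2 of 9 rose beside 10.6% of all tested genes, and 3 of 9 fell beside 7.36%. Leaving out 1 pool lowered the count to 4 (WT QSC replicate 1 or 2), 3 (WT QSC replicate 3 or WT CSC replicate 1), 1 (WT CSC replicate 2) and 2 (WT CSC replicate 3). The pools of the 2 groups did not overlap for 7 of the 9, all but Myod1 and Myog, beside 37.9% of all tested genes.

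**Figure D1:**
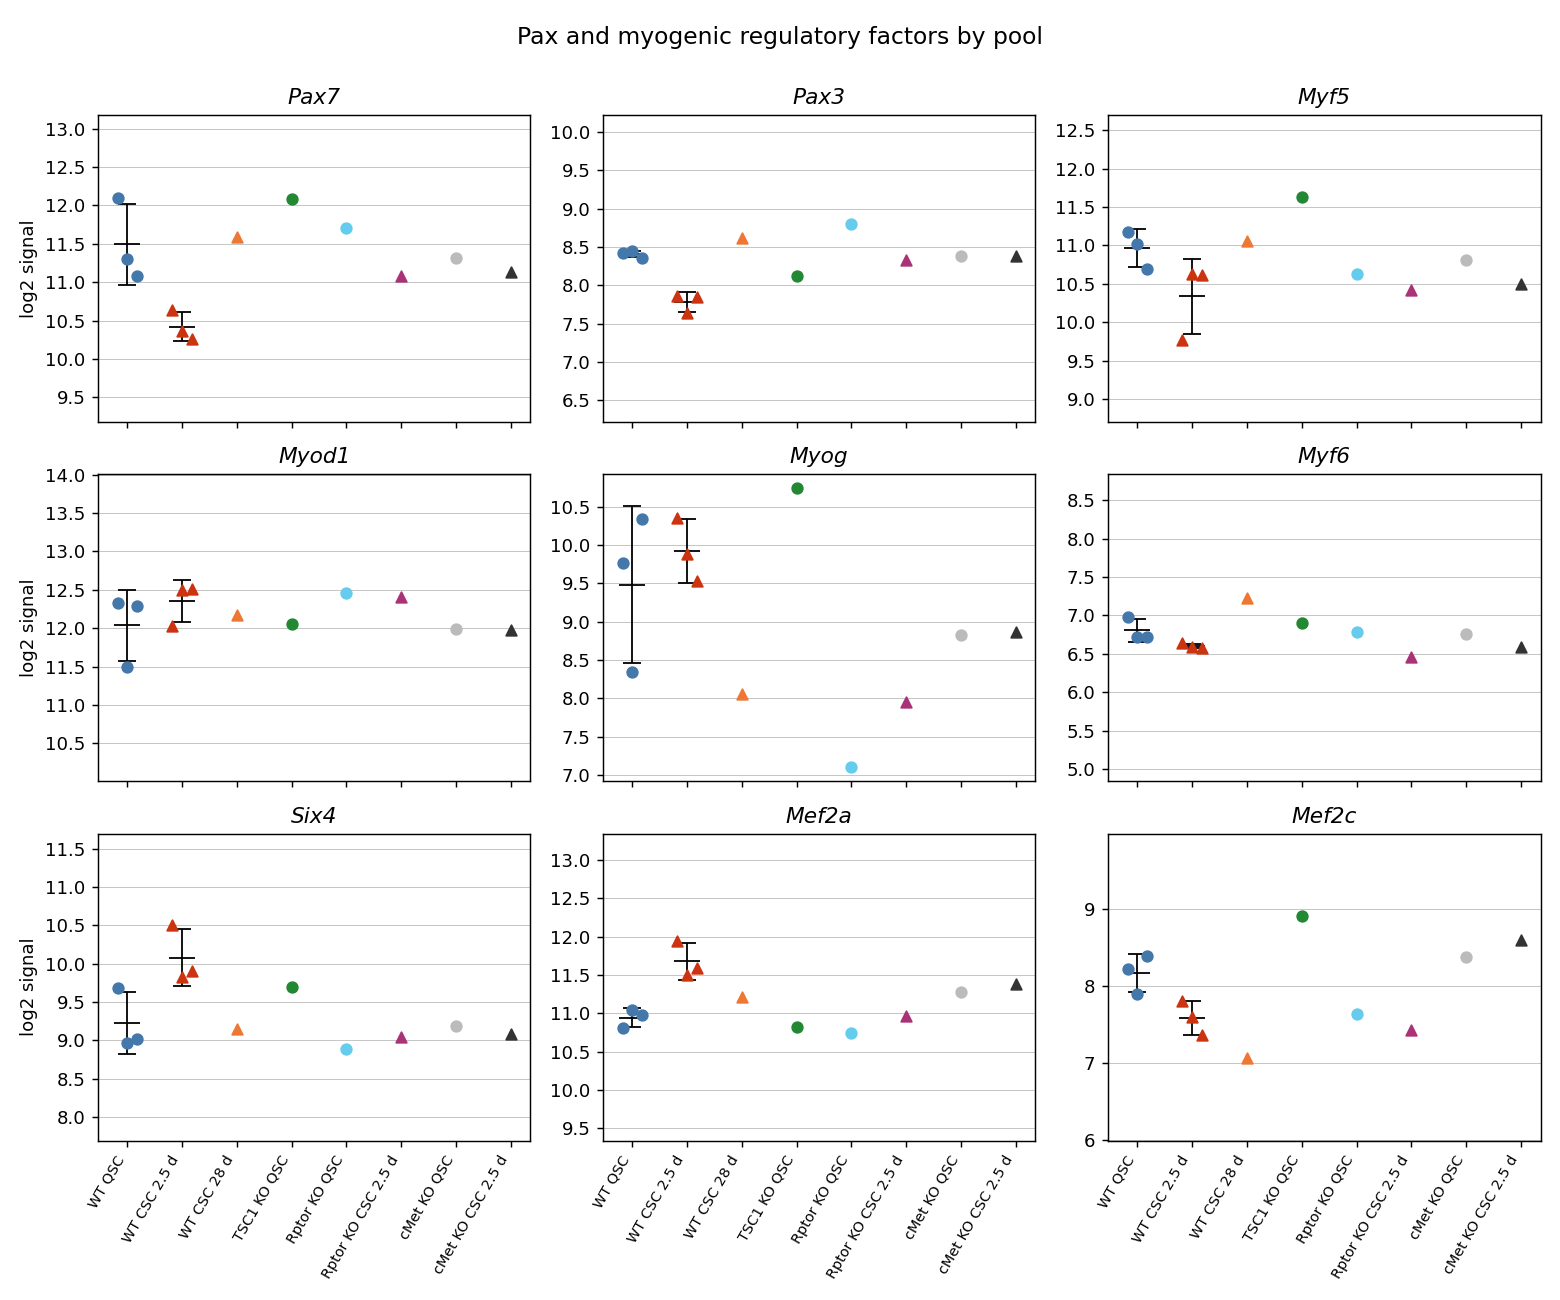
Log2 signal of the 9 genes in the 12 pools, by group; circles are QSC pools, triangles CSC pools, and the bars give the mean and SD of the 2 groups with 3 pools. Every panel spans the same number of log2 units, so that spreads can be compared, and the Myog panel shows the widest scatter, from 7.10 to 10.74.

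Pax7 had log2 signals of 12.10, 11.30 and 11.09 in the 3 WT QSC pools and of 10.63, 10.36 and 10.26 in the 3 WT CSC pools. Every CSC pool lay below every QSC pool, although the QSC pools spread widely (SD 0.53, above that of 96.1% of tested genes) and the CSC pools less (SD 0.19). Pax7 fell by 1.07 ± 0.25 on the log2 scale (SE), or 2.10-fold (limma, adjusted p = 0.0183). Without WT CSC replicate 2 or 3 the adjusted p was 0.0673 and 0.0741. In the other groups Pax7 was 11.59 in WT CSC at 28 days and 12.09 in TSC1 KO QSC. It was 11.71 and 11.08 in the QSC and CSC of Rptor KO, and 11.31 and 11.13 in those of cMet KO. All 3 WT CSC pools at 2.5 days thus lay below every other pool of the study. The recombined cells had been marked through the Pax7 locus itself, and the YFP tracer, once switched on, does not depend on the level of Pax7.

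Pax3 was nearly constant in WT QSC, at 8.42, 8.44 and 8.36 (SD 0.04). In WT CSC at 2.5 days it was 7.86, 7.64 and 7.85, below every other pool. It fell by 0.62 ± 0.13 (SE), or 1.54-fold (limma, adjusted p = 0.0106), and the call was lost only without WT CSC replicate 2 (adjusted p = 0.0615). The other pools held 8.62 (WT CSC at 28 days), 8.13 (TSC1 KO QSC), 8.80 and 8.33 (the QSC and CSC of Rptor KO) and, in both cMet KO pools, 8.38. All of these 6 pools lay above every WT CSC pool at 2.5 days.

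The fall of the Pax genes stood beside a fall of some other satellite cell markers. Of 8 such genes, 0 passed as higher and 3 as lower, beside 10.6% and 7.36% of all tested genes. Chodl fell by 1.28, Calcr, the calcitonin receptor, by 1.17, and Cd34 by 0.84 on the log2 scale. Itga7 went the other way, by 0.49, and did not pass (limma, adjusted p = 0.128). The median was -0.41 over the 8 against -0.05 over all tested genes. In these bulk samples fewer cells of a type and less RNA per cell cannot be told apart. Markers of endothelial and fibro-adipogenic cells were also lower in this comparison. The part of those cells in the values of the 8 genes, Cd34 among them, was not tested.

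Among the myogenic factors, Myf5 was 11.17, 11.02 and 10.69 in WT QSC and 9.76, 10.63 and 10.61 in WT CSC at 2.5 days. The groups did not overlap, but 1 CSC pool lay far below the other two. The difference of -0.63 ± 0.24 (SE) did not pass (limma, adjusted p = 0.108). It passed when all arrays were used with the pool as a random block (limma, adjusted p = 0.0101). That fit takes 1 correlation between the arrays of a pool for all genes (0.598). The low CSC pool, with 2 arrays, weighs more in it than the other CSC pools. Elsewhere Myf5 ranged from 10.42 in Rptor KO CSC to 11.64 in TSC1 KO QSC, the highest pool of all.

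Myod1 was 12.32, 11.50 and 12.28 in WT QSC and 12.03, 12.50 and 12.51 in WT CSC at 2.5 days. The ranges overlapped, and the difference was 0.31 ± 0.24 (SE; limma, adjusted p = 0.412). The 8 group means of Myod1 spanned 0.48, a range larger than that of 28.6% of tested genes, from 11.98 in cMet KO CSC to 12.46 in Rptor KO QSC. Myod1 was thus the member whose group means differed least.

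Myf6 was 6.98, 6.71 and 6.71 in WT QSC and 6.63, 6.59 and 6.58 in WT CSC at 2.5 days. All CSC pools lay lower, by 0.20 ± 0.13 (SE), and the difference did not pass (limma, adjusted p = 0.332). The signal of Myf6 was close to the limit of the filter on dim genes (log2 6.45), and the arrays of 1 pool differed by up to 0.48, so its small differences could not be resolved. It was highest, at 7.22, in WT CSC at 28 days.

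Myog was the most variable member. In WT QSC its pools held 9.77, 8.35 and 10.33, an SD of 1.02 that exceeded the SD of 99.8% of tested genes. In WT CSC at 2.5 days they held 10.36, 9.89 and 9.52, within a narrower range that overlapped with the quiescent pools. The difference was 0.44 ± 0.44 (SE; limma, adjusted p = 0.540) and turned to -0.13 without WT QSC replicate 2. The arrays of a pool differed by no more than 0.34, so that the spread lay between pools rather than between arrays. Across the study Myog ran from 7.10 in Rptor KO QSC through 7.95 (Rptor KO CSC), 8.06 (WT CSC at 28 days), 8.82 and 8.87 (the QSC and CSC of cMet KO) to 10.74 in TSC1 KO QSC. This span of 3.63 between the lowest and the highest group mean was larger than for 99.9% of tested genes.

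The window before the start of Myog is shown because it holds both motifs that were searched, the E-box of the myogenic factors and the MEF3 motif of Six4, and that before Pax7 because it holds neither. Sites of the Pax and Mef2 proteins were not searched. Each is the 250 bases before the annotated start on the gene's own strand, from RefSeq's GRCm38.p6 table: chr1:134289754-134290003 on the plus strand for Myog and chr4:139832969-139833218 on the minus strand for Pax7. Capitals mark the E-box, CANNTG, which reads the same on both strands, and the MEF3 motif, TCAGGTTTC, searched on both strands. No 2 matches overlap.
Myog: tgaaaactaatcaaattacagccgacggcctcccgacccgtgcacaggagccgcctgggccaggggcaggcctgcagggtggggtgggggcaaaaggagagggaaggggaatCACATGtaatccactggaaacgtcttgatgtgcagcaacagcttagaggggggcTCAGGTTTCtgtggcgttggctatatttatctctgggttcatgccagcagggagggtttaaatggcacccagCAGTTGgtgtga
Pax7: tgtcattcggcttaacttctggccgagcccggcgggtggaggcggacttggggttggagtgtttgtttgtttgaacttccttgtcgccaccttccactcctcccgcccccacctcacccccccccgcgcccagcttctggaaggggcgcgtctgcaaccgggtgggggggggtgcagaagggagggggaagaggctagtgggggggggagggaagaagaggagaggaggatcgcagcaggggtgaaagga
In Myog the E-boxes begin 138 and 12 bases before the start and the MEF3 match begins 84 bases before it. Six4, itself a MEF3-binding protein, has a MEF3 match on the opposite strand, which begins 99 bases before 1 of its 2 annotated starts and is shown with 10 bases on either side (chr12:73113326-73113354, minus strand).
Six4: tggcctggggGAAACCTGAtcggccagat
Of 32851 such windows in the table, 66.2% hold an E-box, 31.8% hold at least 2, and 0.387% (127 windows) hold a MEF3 match. At least 2 E-boxes together with a MEF3 match occur in 47 windows. The table had 9 windows for 6 of the members. Those of Myf5, Mef2a and Pax7 held neither motif, and 2 of the 3 windows of Mef2c held an E-box. A match of letters is a description of the window and does not show that a protein binds there.

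Six4 was 9.69, 8.97 and 9.02 in WT QSC and 10.50, 9.83 and 9.90 in WT CSC at 2.5 days. All CSC pools lay above all QSC pools. Six4 rose by 0.85 ± 0.24 (SE), or 1.80-fold (limma, adjusted p = 0.0391). The call was lost without a filter on dim genes (adjusted p = 0.0604) and when any WT pool other than QSC replicate 1 was left out (adjusted p between 0.0636 and 0.127). In TSC1 KO QSC Six4 was 9.69, and in the other pools it lay between 8.89 (Rptor KO QSC) and 9.19 (cMet KO QSC).

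Mef2a was 10.81, 11.04 and 10.98 in WT QSC and 11.95, 11.49 and 11.59 in WT CSC at 2.5 days, again without overlap. It rose by 0.73 ± 0.15 (SE), or 1.66-fold (limma, adjusted p = 0.0128). It was the only one of the 5 calls to hold under all 16 alternatives tried, with a highest adjusted p of 0.0447. The other pools lay between 10.74 (Rptor KO QSC) and 11.38 (cMet KO CSC), all below the lowest WT CSC pool.

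Mef2c moved the other way. It was 8.23, 7.89 and 8.39 in WT QSC and 7.81, 7.60 and 7.36 in WT CSC at 2.5 days, and fell by 0.58 ± 0.17 (SE), or 1.49-fold (limma, adjusted p = 0.0481). This call lay close to the threshold. It was lost with centred arrays (adjusted p = 0.0791), without the filter (adjusted p = 0.0676) and without WT QSC replicate 1 or 3 or any 1 of the WT CSC pools (adjusted p between 0.0586 and 0.182). Mef2c is also transcribed in endothelial cells, whose markers moved with it: all 12 were lower in WT CSC, with a median of -1.13, and Cdh5, the endothelial cadherin, fell from 10.84, 10.23 and 10.99 to 8.59, 9.44 and 9.06. Their part in the result was not tested. In the other pools Mef2c ran from 7.07 in WT CSC at 28 days to 8.91 in TSC1 KO QSC.

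**Figure D2:**
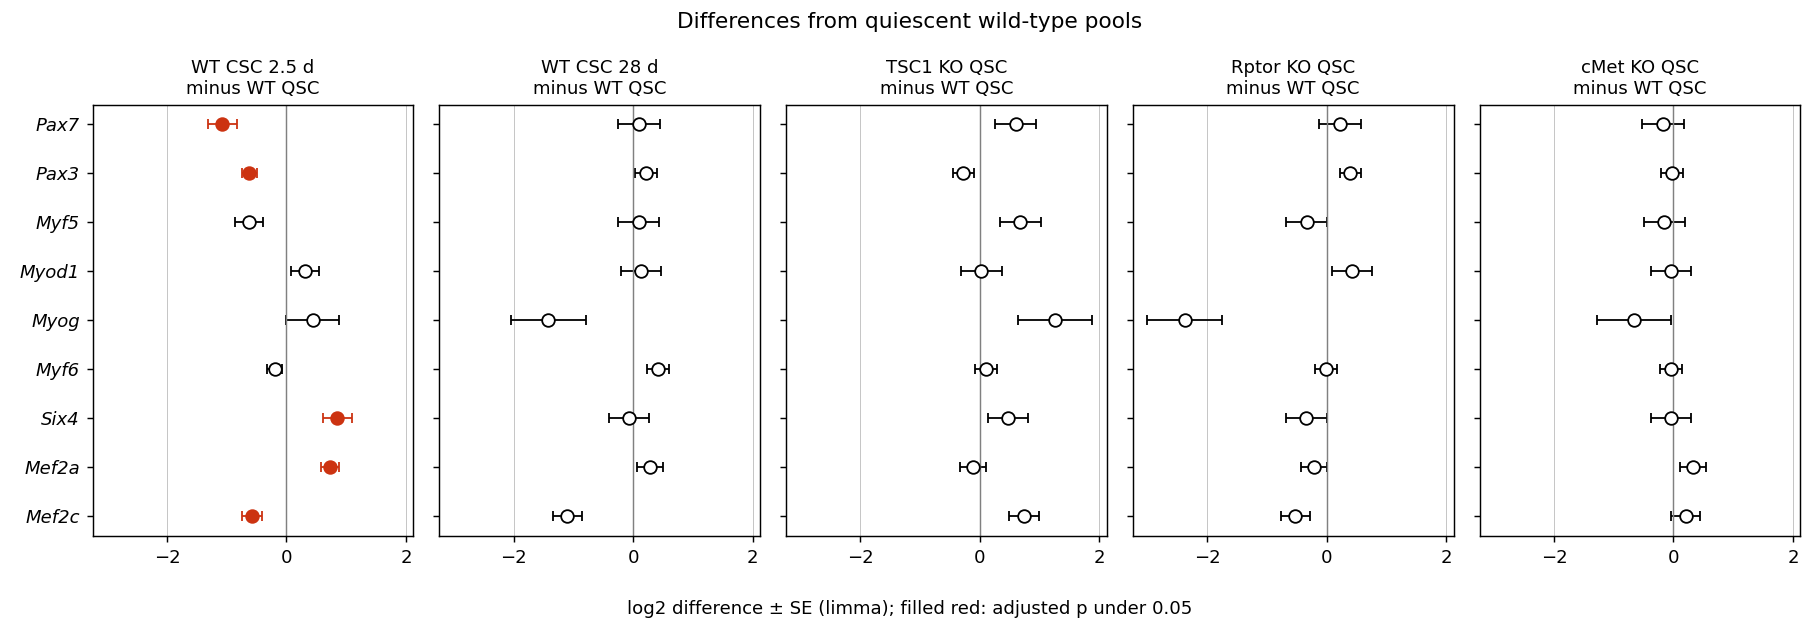
Log2 difference of each gene from the mean of the 3 WT QSC pools, with its SE from limma, for the 5 groups compared with WT QSC. Filled red points passed at an adjusted p under 0.05, which 5 genes did in WT CSC at 2.5 days and none in the groups of 1 pool, where the largest difference was that of Myog in Rptor KO QSC (-2.38).

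The genes known to act with or against these factors were read from 7 lists, which were chosen with earlier results of these data known. Their counts for WT CSC at 2.5 days against WT QSC stand beside 10.6% of all tested genes that rose and 7.36% that fell. A list with 1 gene risen or fallen lies near those shares, and the gene is named as a description. Of 7 E proteins and Id inhibitors, 0 rose and 1 fell in WT CSC at 2.5 days: Id3, an inhibitor that takes E proteins from the myogenic factors, fell by 0.81 ± 0.21 (SE; limma, adjusted p = 0.0314). Of 7 tested relatives and Eya partners of Six4, 1 rose and 1 fell. Eya3, a coactivator of Six4 and its relatives, rose by 0.48, and Dach1, a corepressor, fell by 0.81. Of 8 tested early muscle homeobox and Sox factors, 0 rose and 1 fell, Meox2, by 1.37 ± 0.18. Meox2 is also known from endothelial cells, whose markers fell in the same comparison. Of 7 tested Mef2 relatives and regulators, 0 rose and 1 fell, Srf, the serum response factor, by 0.69.

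Antagonists of the myogenic factors had the lowest median of the 7 lists, -0.48 over 11 genes against -0.05 over all tested genes. None of them rose and 3 fell: Hes1, an effector of Notch signalling, by 1.19 ± 0.27, Heyl, of the same family, by 1.05 ± 0.27, and Zeb1, a repressor that binds E-boxes, by 0.48 ± 0.14. Notch effectors such as Heyl are also known from pericytes and smooth muscle. Of 8 markers of those cells 4 fell in the same comparison, with a median of -0.84. The log2 summed signal of 10 fibro-adipogenic markers was also lower, at 12.92 to 13.45 against 14.03 to 14.21. The part of these cells, and of endothelial cells, in the values of the 7 lists was not tested. Of 9 chromatin cofactors of Pax7 and MyoD 1 rose and 1 fell. Ash2l, a subunit of the histone methyltransferase complexes that Pax7 recruits, rose by 0.65 ± 0.16, and Kat2b, an acetyltransferase partner of MyoD, fell by 0.63 ± 0.17.

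Muscle genes downstream of the myogenic factors rose in part: 9 of 27 tested rose and 0 fell. Over all tested genes 10.6% rose and 7.36% fell. The median of the list was 0.30. Tnni1, a slow troponin, rose by 1.65 ± 0.17 (SE; limma, adjusted p = 0.0005). Myh3, the embryonic myosin heavy chain, rose by 1.92 ± 0.22, Tnnt2, the cardiac and embryonic troponin T, by 1.70 ± 0.26, and Chrna1, a subunit of the muscle acetylcholine receptor, by 1.26 ± 0.19. The others were Chrng, Chrnd, Myl4, Mymx and Rbm24. Without WT QSC replicate 2, 9 rose and 4 fell. Of 10 tested markers of mature fibres, 3 rose in the same comparison (Actn3, Ttn and Tnnt3), and the log2 summed signal of the 13 on the array lay between 11.21 and 12.60 in WT QSC and between 12.37 and 12.98 in WT CSC. Their part in the rise of the downstream genes was not tested. Myog itself did not pass in this comparison, as given above.

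At 28 days after injury the single WT pool differed from the mean of WT QSC by -0.08 to 0.27 for Pax7, Pax3, Myf5, Myod1, Six4 and Mef2a. For Pax7, Myf5, Myod1 and Six4 it lay within the range of the WT QSC pools. For Pax3 (8.62 against 8.36 to 8.44) and Mef2a (11.22 against 10.81 to 11.04) it lay above all 3 of them. None of the 9 passed against WT QSC (limma), beside 0% of all 13956 tested genes, and 3 of the 9 had an unadjusted p under 0.05. These were Mef2c, with a difference of -1.10 ± 0.24 (unadjusted p = 0.0015, adjusted p = 0.476), Myog, with -1.42 ± 0.62, and Myf6, with 0.42 ± 0.18 (both adjusted p = 0.999). The Mef2c value of 7.07 lay below all 11 other pools. The log2 summed signal of the endothelial markers in this pool was 11.72, below the lowest WT QSC pool (12.64), and all 12 of them were lower than in WT QSC, with a median difference of -1.16. Their part was not tested.

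Against WT CSC at 2.5 days, 1 of the 9 passed in the 28-day pool, beside 8.38% of all tested genes. Pax3 was higher by 0.84 ± 0.18 (SE), or 1.79-fold (limma, adjusted p = 0.0230), a call that was lost without WT CSC replicate 2 or 3 (adjusted p = 0.0805 and 0.0707). Pax7 was higher by 1.17 ± 0.35 and missed the threshold (adjusted p = 0.0743), though it passed under 5 of the alternatives. Myf6 was higher by 0.62 ± 0.18 (adjusted p = 0.0729), and Myog differed by -1.86 ± 0.62 (adjusted p = 0.104). Six4 differed by -0.93 ± 0.34 and Mef2a by -0.46 ± 0.22, and neither passed. Of the 27 downstream muscle genes 9 were lower and 0 higher, with a median of -1.08, among them Myh3 (-2.50 ± 0.31) and Tnni1 (-1.76 ± 0.24). The count of those lower was 15 without WT QSC replicate 2, 7 without WT CSC replicate 1, and 8 without WT CSC replicate 2 or 3. Markers of mature fibres were lower as well, with 0 of 10 positive, 3 passing (Ttn, Tnnt3 and Actn3) and a median of -0.80, and their log2 summed signal was 11.32 against 12.37 to 12.98. Their part was not tested. This comparison and that of WT CSC with WT QSC share the WT CSC pools.

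In quiescent cells of the knockouts none of the 9 passed against WT QSC in any genotype (limma): 0 of 9 in TSC1 KO, beside 0.0143% of all tested genes, 0 of 9 in Rptor KO, beside 0.122%, and 0 of 9 in cMet KO, beside 0%. With an unadjusted p under 0.05 there was 1 member in TSC1 KO, 1 in Rptor KO and 0 in cMet KO. In TSC1 KO it was Mef2c, at 8.91 against 7.89 to 8.39 in WT QSC, higher by 0.74 ± 0.24 (adjusted p = 0.468). Of 12 endothelial markers 1 was positive there and 0 passed, with a median of -0.31. Markers of mature fibres had 10 of 10 positive and 0 passing, with a median of 0.49. The log2 summed signal of pericyte and smooth muscle markers was 13.78 in this pool, against 12.92 to 13.48 in WT QSC. The part of any of these cells in the Mef2c value was not tested. Myog (10.74) and Myf5 (11.64) also lay above all 3 WT QSC pools in this pool, by 1.26 ± 0.62 and 0.67 ± 0.34 from the mean (adjusted p = 0.591 and 0.597). In Rptor KO it was Myog, at 7.10 against 8.35 to 10.33, a difference of -2.38 ± 0.62 or 5.20-fold (unadjusted p = 0.0041, adjusted p = 0.220). This difference passed without WT QSC replicate 2, the WT pool with the lowest Myog (adjusted p = 0.0246), and with all arrays and the pool as a random block (adjusted p = 0.0072). The random-block fit takes 1 correlation between the arrays of a pool for all genes (0.598). For Myog the arrays of a pool agreed closely while the pools spread, so that fit overstates its precision (SE 0.44 against 0.62). In cMet KO the 9 differences lay between -0.66 (Myog) and 0.33 (Mef2a).

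TSC1 loss and Rptor loss act on mTORC1 in opposite ways, so their quiescent pools were also compared with each other. This comparison was added after the values had been seen, and sets 1 pool against 1. Myog was higher in TSC1 KO QSC by 3.63 ± 0.76 (SE), or 12.4-fold, and missed the threshold (limma, adjusted p = 0.0539). Under the 15 alternatives the difference lay between 3.61 and 3.75, and it passed under 9 of them. Leaving out a WT pool changes only the error borrowed from those pools. These 2 pools hold the highest and the lowest Myog of the 12, so the comparison was chosen from the values. A pass is therefore no support for it. Mef2c was higher by 1.27 ± 0.30 (adjusted p = 0.0700), Myf5 by 1.01 ± 0.42 (adjusted p = 0.233), and Pax3 differed by -0.68 ± 0.22 (adjusted p = 0.144). Thus 0 of the 9 passed, beside 1.55% of all tested genes, and 4 had an unadjusted p under 0.05. Centring the arrays moved the median of all genes in this comparison from 0.05 to 0.16. The signs of the 4 were the same under every scaling, while that of Mef2a, near 0, was not.

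Of the 27 downstream muscle genes, 7 were higher in TSC1 KO QSC than in Rptor KO QSC and 0 lower. Over all tested genes 1.55% passed in either direction. The median of the list was 1.32 against 0.05 over all tested genes. Because the 2 pools hold the extremes of Myog, genes that follow Myog over the pools differ between them through that choice. The calls given here are therefore no support, as for Myog. Those with the smallest p were Myl4, an embryonic myosin light chain, higher by 2.95 ± 0.38 (limma, adjusted p = 0.0157), and Myl1, a fast myosin light chain, higher by 3.50 ± 0.54 (adjusted p = 0.0238). The count was 11 without WT QSC replicate 2, 0 without WT CSC replicate 2, 1 without WT CSC replicate 3, and 4 with no filter on dim genes. Markers of mature fibres were also higher: 10 of 10 were positive, 1 passed (Mb), and the log2 summed signal of the 13 was 12.75 in TSC1 KO QSC and 11.11 in Rptor KO QSC. Acta1, the skeletal actin of the fibre, was 11.75 and 8.96. In the WT QSC pools Acta1 was 10.73, 9.16 and 11.56, in the same order as Myog. Of 8 markers of pericytes and smooth muscle, 6 were positive, with a median of 0.41, and 1 passed (Acta2, higher by 1.73 ± 0.34). The part of fibre RNA or of these cells in the differences was not tested.

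**Figure D3:**
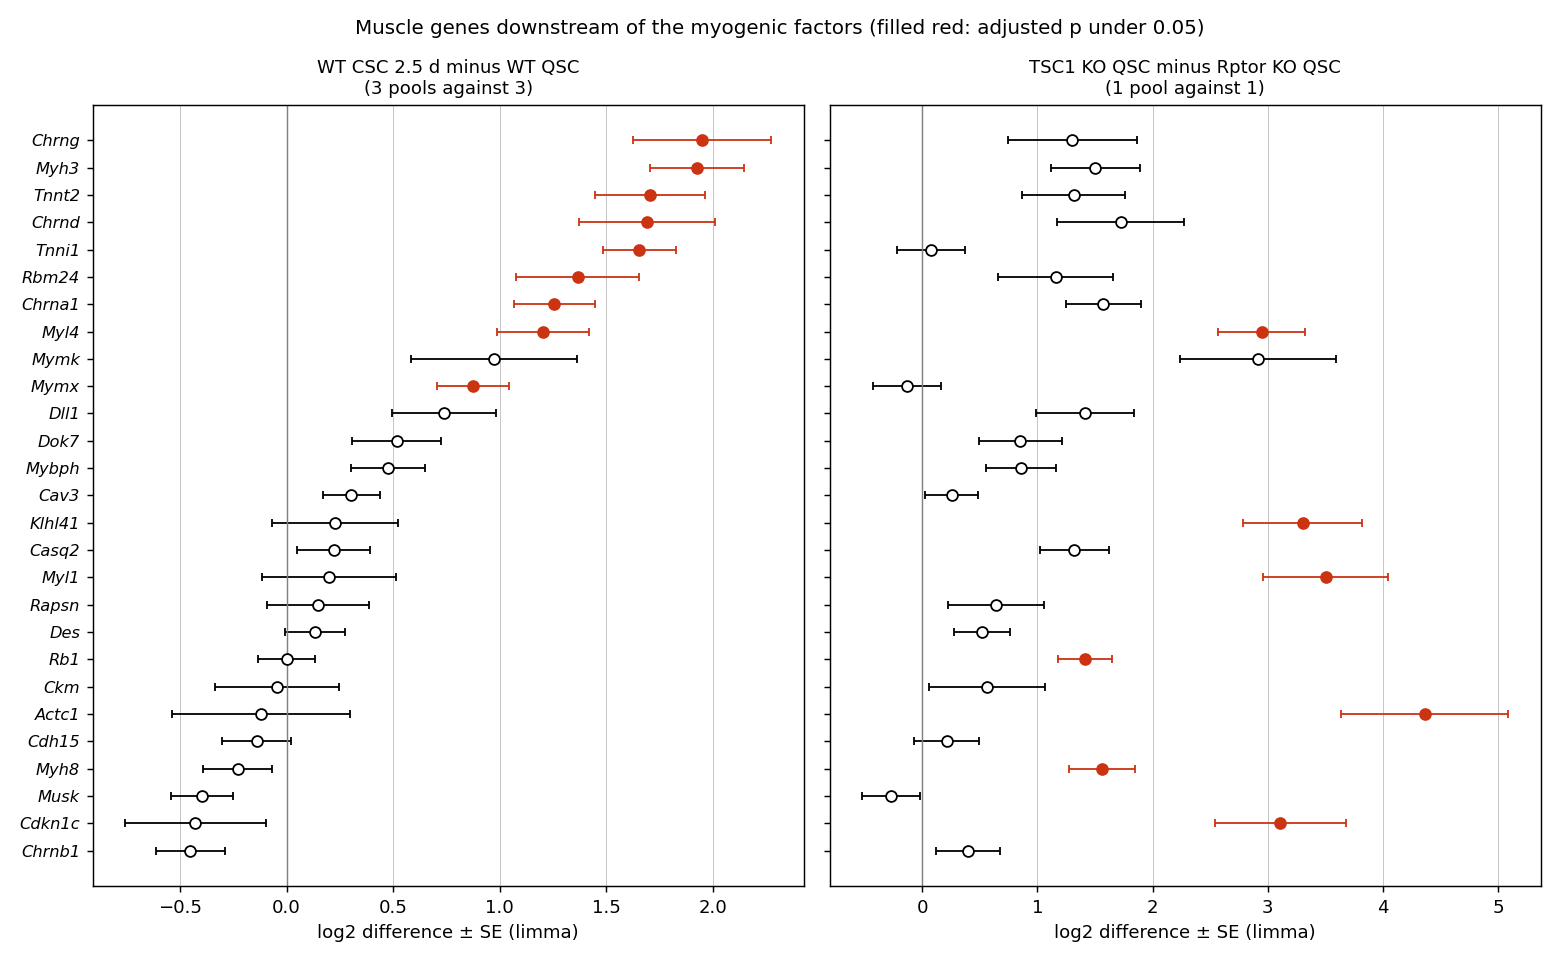
Log2 differences with their SE from limma for the 27 tested muscle genes downstream of the myogenic factors, at left for WT CSC at 2.5 days minus WT QSC and at right for TSC1 KO QSC minus Rptor KO QSC, in the same gene order; the 2 axes differ in scale. At left 9 genes passed (filled red), led by receptor, troponin and embryonic myosin genes, and at right 7, of which only Myl4 also passed at left. The comparison at right was chosen from the values of Myog, so its calls are no support.

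The genes most like Myog over the 12 pools were Spg21, Mymk and Dbn1, with Pearson correlations of 0.960, 0.956 and 0.952. Mymk encodes myomaker, the membrane protein of myoblast fusion. Its signal was 10.13, 8.80 and 10.39 in WT QSC, in the same order as Myog, and 11.27, 10.54 and 10.43 in WT CSC at 2.5 days. It was 10.90 in TSC1 KO QSC and 7.99 in Rptor KO QSC, the lowest pool for both genes. These correlations were the highest among the 13956 tested genes once predicted genes (Gm and Rik names) and microRNAs were left out. They are given as a description, since all genes were read from the same arrays and the same pools of RNA.

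**Figure D4:**
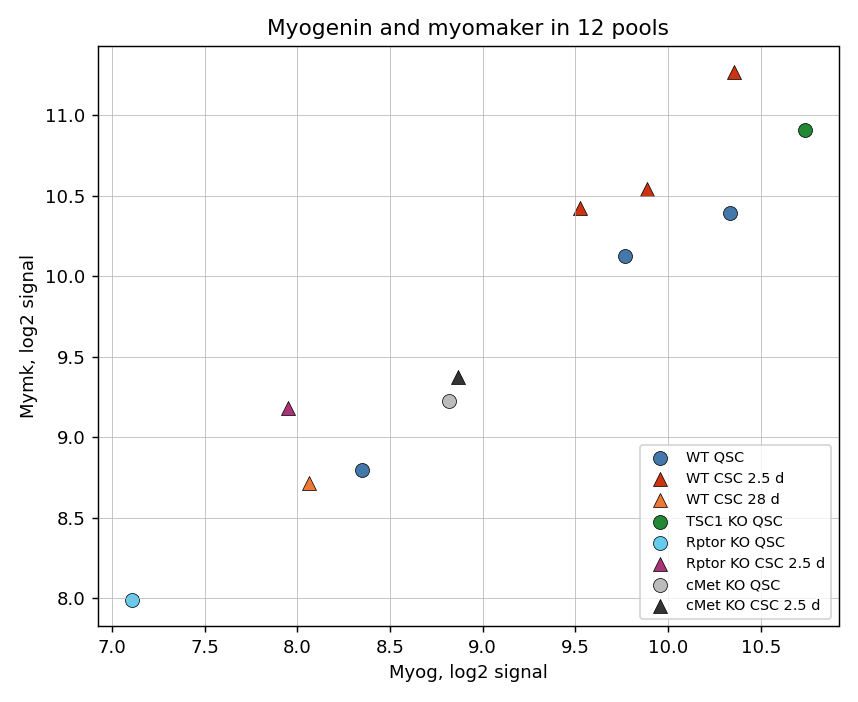
Log2 signal of Mymk against that of Myog in the 12 pools; circles are QSC pools and triangles CSC pools, coloured by group. Rptor KO QSC lies lowest on both axes (7.10 and 7.99), and the 3 WT QSC pools are spread over much of the range, from 8.35 to 10.33 for Myog.

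By the same rule, the closest genes to Pax7 were Wdfy2 (0.993), Tgfbr3, a co-receptor of transforming growth factor beta (0.981), and Gcc1 (0.978). Wdfy2 held 9.31, 8.87 and 8.69 in WT QSC and 8.48, 8.26 and 8.22 in WT CSC at 2.5 days. Those closest to Myf5 were Gstm3 (0.976), Fuz (0.947) and Mccc1 (0.921), and those closest to Myod1 were Snapc4 (0.916), Syvn1 (0.910) and Rpusd2 (0.900). Those closest to Mef2c were Gng11 (0.953), Gdpd3 (0.940) and Nuak1 (0.910). No closest gene was shared between any 2 of these 5 members. With only 3 genes kept per member out of 13956, this does not show that their patterns differ.

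When the 8 groups were ordered by level, neighbours in the order differed by more than 2 SE only once among all members: for Mef2c between Rptor KO QSC (7.64) and WT QSC (8.17). For the other 8 genes no neighbouring groups differed by that much. WT CSC at 2.5 days was the lowest of the 8 groups for Pax7, Pax3 and Myf5 and the highest for Six4 and Mef2a. TSC1 KO QSC was the highest for Pax7, Myf5, Myog and Mef2c.

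The response to distant injury within the knockouts was read as CSC at 2.5 days minus QSC of the same genotype. None of the 9 passed in Rptor KO (limma), beside 0.258% of all tested genes, or in cMet KO, beside 0%, and 0 of the 9 had an unadjusted p under 0.05 in either. In Rptor KO Pax7 differed by -0.64 ± 0.43 (SE), Pax3 by -0.47 ± 0.22, Six4 by 0.16 ± 0.41, Mef2a by 0.22 ± 0.27 and Mef2c by -0.21 ± 0.30. The log2 summed signal of macrophage and monocyte markers was 13.60 in the CSC and 11.15 in the QSC of Rptor KO. The part of those cells in these differences was not tested. In cMet KO Pax7 differed by -0.18 ± 0.43, Pax3 by -0.01 ± 0.22, Six4 by -0.11 ± 0.41, Mef2a by 0.10 ± 0.27 and Mef2c by 0.22 ± 0.30.

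**Figure D5:**
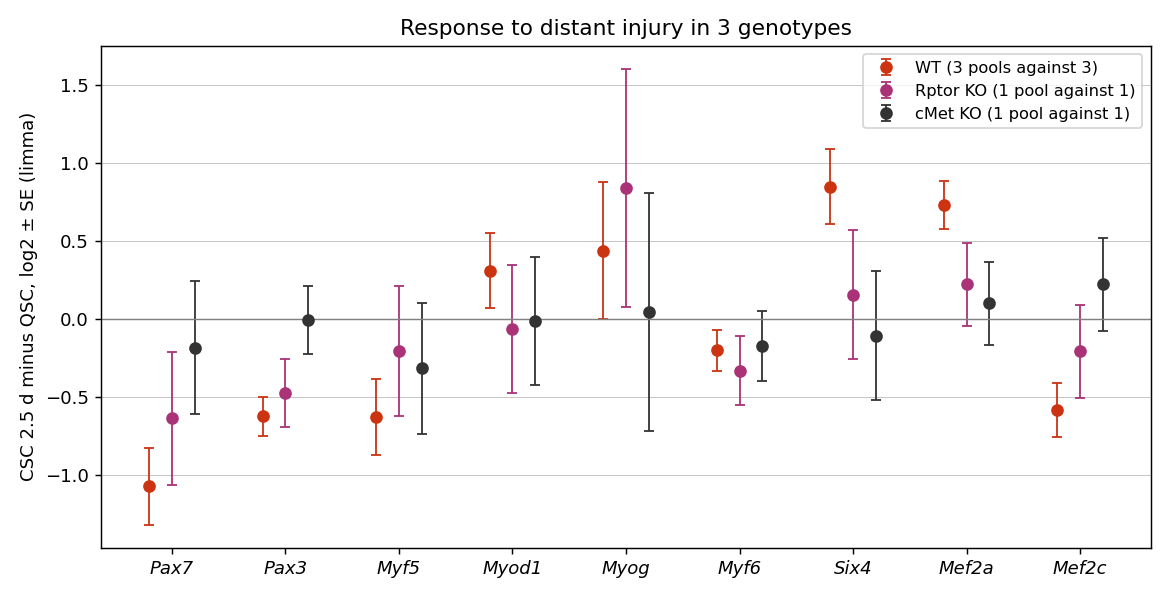
Log2 difference of CSC at 2.5 days from QSC of the same genotype for the 9 genes, with its SE from limma, in WT (3 pools against 3), Rptor KO and cMet KO (1 pool against 1 each). For Pax7, Pax3, Six4 and Mef2a the points of both knockouts lie nearer to 0 than those of WT (-1.07, -0.62, 0.85 and 0.73). They are -0.64, -0.47, 0.16 and 0.22 in Rptor KO and -0.18, -0.01, -0.11 and 0.10 in cMet KO. The SE of these knockout values runs from 0.22 to 0.43. All of these genes passed in WT, where a pass favours large differences. It was not shown that any member responded differently in a knockout.

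The difference between the responses was itself tested. For Rptor KO minus WT none of the 9 passed (limma), beside 0% of all tested genes, and 0 had an unadjusted p under 0.05. For cMet KO minus WT none passed, beside 0.158%, and 2 had an unadjusted p under 0.05: Pax3, with a difference of 0.62 ± 0.25 (SE; adjusted p = 0.467), and Mef2c, with 0.80 ± 0.35 (adjusted p = 0.501). Pax7 had 0.89 ± 0.49 (adjusted p = 0.673) and Six4 -0.96 ± 0.48 (adjusted p = 0.606). It was therefore not shown that any member responded differently in a knockout.

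Set directly against the 3 WT CSC pools, 0 of 9 passed in Rptor KO CSC, beside 3.9% of all tested genes, and 4 had an unadjusted p under 0.05. Myog was 7.95 against 9.52 to 10.36, a difference of -1.97 ± 0.62 (limma, adjusted p = 0.118). Six4 differed by -1.03 ± 0.34 (adjusted p = 0.130), Mef2a by -0.71 ± 0.22 (adjusted p = 0.109) and Pax3 by 0.54 ± 0.18 (adjusted p = 0.130). Of the downstream muscle genes 4 of 27 were lower and 0 higher, among them Myh3 (-2.37 ± 0.31) and Klhl41 (-2.44 ± 0.42). The count was 11 without WT QSC replicate 2, 1 without WT CSC replicate 1 or 2, and 0 without WT CSC replicate 3. Macrophage and monocyte markers were higher in this pool, 7 of 8 tested, with a median of 2.31. Ptprc, the leukocyte antigen CD45, was 7.42 against 6.67 to 6.93. Markers of mature fibres were lower, with 1 of 10 positive, 1 passing (Actn3, -2.74 ± 0.34) and a median of -0.85, and their log2 summed signal was 11.12 against 12.37 to 12.98. The part of either list in these values was not tested.

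In cMet KO CSC 1 of 9 passed against WT CSC, beside 6.74% of all tested genes. Mef2c was 8.60 against 7.36 to 7.81, higher by 1.01 ± 0.24 (SE), or 2.01-fold (limma, adjusted p = 0.0430). The call was lost with centred arrays (adjusted p = 0.0698), without the filter (adjusted p = 0.0591) and without any 1 of the WT CSC pools (adjusted p between 0.0611 and 0.121). Endothelial markers were also higher in this pool: 12 of 12 were positive and 9 passed, with a median of 1.77, and their log2 summed signal was 13.81 against 11.55 to 12.01 in WT CSC. Their part was not tested. Pax3 differed by 0.59 ± 0.18 (adjusted p = 0.0802) and Six4 by -0.999 ± 0.34 (adjusted p = 0.112). Of the downstream muscle genes 7 of 27 were lower and 0 higher, among them Myh3 (-2.11 ± 0.31) and Tnni1 (-1.47 ± 0.24). The count was 13 without WT QSC replicate 2, 4 without WT CSC replicate 2, and 3 without WT CSC replicate 1 or 3. Markers of mature fibres were lower in this pool, with 1 of 10 positive, 0 passing and a median of -0.89, and their log2 summed signal was 11.33 against 12.37 to 12.98. Higher were markers of fibro-adipogenic cells (10 of 10 positive, 5 passing, median 0.98), of pericytes and smooth muscle (8 of 8 positive, 2 passing, median 0.98) and of macrophages and monocytes (8 of 8 positive, 2 passing, median 0.77). Their part was not tested. Of the other lists, Meox2 was higher by 2.47 ± 0.25 and Dach1 by 1.06 ± 0.23. This comparison and that of WT CSC with WT QSC share the WT CSC pools.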

How the data were processed

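The submitters' processing notes name Affymetrix Expression Console and RMA, with which the authors made the deposited log2 probeset signals. Their versions and any build: not given in the sources used here. Of 35556 probesets, 21789 had 1 gene symbol, 1621 several and 12146 none in the platform table, and only the first were used. A gene with several took the brightest. Genes under the 30th percentile of mean signal (log2 6.45) were left out, leaving 13956.

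The 2 arrays of a pool were averaged. Group means were fitted with limma 3.58.1 (R 4.3.3) over 12 pools, with Benjamini-Hochberg adjustment over all tested genes and 0.05 as the threshold. The residual degrees of freedom (4, prior 5.01) rest on the WT pools. The number of pools, and of arrays within them, limits the precision. A summed marker level is the log2 of summed linear signals.

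The members were chosen by name and not by a measured value, but they and the lists were chosen with earlier results of these data known. Named are all members, up to 4 genes per pathway list with the smallest p in WT CSC against WT QSC, and up to 2 per list in other contrasts. Also named are the 3 genes most correlated with Pax7, Myf5, Myod1, Myog and Mef2c, leaving out predicted genes (Gm and Rik names) and microRNAs. Other names were chosen after their values were seen. Alternatives changed the scaling, the filter, the probeset rule, eBayes options, the use of arrays, the replicate block, the pools fitted and each WT pool. The fit with the pool as a random block used 1 correlation between arrays of a pool for all genes (0.598). Where the arrays of a pool agree more closely than that, it counts them partly as replicates and overstates the precision. The sample titles do not say whether WT pools were paired, and no pairing was used in the fit. The correlations of the deviations of pools with the same number were 0.32, -0.03 and -0.03. Between pools of different number they lay between -0.31 and 0.32, so these values do not settle it. Figures were drawn with matplotlib 3.10.9.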

Additional observations from a re-analysis of the deposited data

How the results depend on the processing

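Of 1751 differences of single members under an alternative, 1660 kept their direction and their side of the threshold, 37 passed only under the alternative, 24 no longer passed and 30 turned in sign, none of them a call. Precision is limited by the 3 pools of each WT group and the single pools elsewhere; where calls were lost or gained the cause was not tested.

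For the members called, WT CSC against WT QSC gave 5, and 3 without a filter; leaving out 1 WT pool gave 1 to 4. WT CSC at 28 days against 2.5 days gave 1, and 2 with trend and robust eBayes, 2 with the first array of each pool, 5 with the pool as a random block and 0 to 3 without 1 WT pool. With the random block 1 passed for 28 days against WT QSC (Mef2c), 1 for Rptor KO QSC, 3 for Rptor KO CSC and 3 for cMet KO CSC against WT CSC, and 3 for TSC1 KO against Rptor KO QSC. In that last comparison 1 passed after quantile normalization again, 1 with the filter at the 50th percentile, 1 with trend and robust eBayes, 2 with first arrays and 0 to 2 without 1 WT pool. For cMet KO CSC against WT CSC none passed with centred arrays or without a filter, and 0 to 1 without 1 WT pool. Leaving out 1 WT pool gave 0 to 1 for Rptor KO QSC against WT QSC and 0 to 1 for Rptor KO CSC against WT CSC.

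For all genes called, WT CSC against WT QSC gave 2510, and 1194 to 2620 without 1 WT pool. Without 1 WT pool the counts were 453 to 1776 for 28 days against 2.5 days (1169 in the fit reported), 1 to 231 for TSC1 KO QSC (2) and 2 to 46 for Rptor KO QSC (17) against WT QSC, 15 to 55 for the CSC against the QSC of Rptor KO (36), 25 to 994 for Rptor KO CSC (544) and 314 to 1578 for cMet KO CSC (941) against WT CSC, 0 to 19 for the Rptor KO minus the WT response (0), 0 to 43 for the cMet KO minus the WT response (22) and 16 to 671 for TSC1 KO against Rptor KO QSC (216). With the random block they were, for 28 days, 52 against WT QSC and 2354 against 2.5 days; against WT QSC 174 for TSC1 KO, 235 for Rptor KO and 2 for cMet KO; for CSC against QSC 112 in Rptor KO and 2 in cMet KO; against WT CSC 1378 for Rptor KO and 2173 for cMet KO; for the responses 49 (Rptor KO) and 357 (cMet KO); and 1271 for TSC1 KO against Rptor KO QSC. Counts for TSC1 KO QSC against WT QSC were 6 after quantile normalization again, 1 with centred arrays, 1 without a filter, 6 with the filter at the 50th percentile, 10 with trend and robust eBayes and 10 with first arrays. For Rptor KO QSC against WT QSC they were 35 after quantile normalization again and 33 with the filter at the 50th percentile, and for the CSC against the QSC of Rptor KO 23 with centred arrays and 61 with first arrays. For the Rptor KO minus the WT response they were 4 after quantile normalization again, 12 with trend and robust eBayes and 11 with first arrays. For the cMet KO minus the WT response they were 11 after quantile normalization again, 52 with trend and robust eBayes, and 0 with centred arrays, without a filter or with the filter at the 50th percentile. For TSC1 KO against Rptor KO QSC they were 101 without a filter and 347 with first arrays. Of the 17 calls for Rptor KO QSC, 29.4% were higher, and 42.9% after quantile normalization again and 8.33% with centred arrays.

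Whether the replicate number pairs these pools is not given by the sample titles. With the replicate block, 4 members passed for WT CSC against WT QSC, Mef2c being lost (adjusted p = 0.0512), 3 for 28 days against 2.5 days, 1 for Rptor KO CSC (Six4) and 2 for cMet KO CSC against WT CSC, and 1 for TSC1 KO against Rptor KO QSC (Myog). The block gave 4 genes called for TSC1 KO QSC against WT QSC and 0 for the cMet KO minus the WT response.

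None of the signs that turned was of a difference past the threshold. After quantile normalization again Myf6 was -0.0065 in the cMet KO minus the WT response and Mef2a -0.048 in TSC1 KO against Rptor KO QSC, and with centred arrays Myod1 was -0.0090 in Rptor KO CSC against WT CSC. With first arrays Myod1 was -0.050 in TSC1 KO QSC, Myf6 was 0.034 in Rptor KO QSC and 0.018 in cMet KO QSC, and Six4 was 0.065 in cMet KO QSC, all against WT QSC; Myf6 was 0.053 in Rptor KO CSC and 0.079 in cMet KO CSC against WT CSC and 0.019 in the Rptor KO minus the WT response, and Mef2a was -0.072 in TSC1 KO against Rptor KO QSC. Without 1 WT pool, Myog in WT CSC against WT QSC ran from -0.13 to 0.86. Against WT CSC, Myf5 ran from -0.20 to 0.23 in Rptor KO CSC and from -0.13 to 0.31 in cMet KO CSC, and Myod1 from -0.11 to 0.14 in Rptor KO CSC. Against WT QSC, the 28-day pool ran from -0.044 to 0.20 for Myf5, from -0.14 to 0.28 for Myod1, from -0.11 to 0.40 for Pax7 and from -0.20 to 0.15 for Six4. Against WT QSC, Myf6 ran from -0.063 to 0.071 in Rptor KO QSC and from -0.092 to 0.043 in cMet KO QSC, and Myod1 from -0.24 to 0.17 in TSC1 KO QSC and from -0.32 to 0.10 in cMet KO QSC. In cMet KO QSC Pax7 ran from -0.38 to 0.12 and Six4 from -0.17 to 0.19. Myog ran from -0.021 to 0.97 in the Rptor KO minus the WT response and from -0.82 to 0.18 in the cMet KO minus the WT response, where Myf6 ran from -0.060 to 0.074.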
